A study of Trachemys scripta with 24 samples.

Results

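The resting plasma miRNA repertoire of the pond slider (Trachemys scripta) was described in the 8 libraries labelled T0, out of 24 libraries in the series. The animals were clinically healthy, sexually mature female turtles, and their plasma was drawn 24 h ahead of a gonadectomy, before anesthesia or surgery. They were already in hospital, and food had been withdrawn for the operation. Each library was made from the plasma of 1 turtle, separated from blood taken at the cervical sinus into EDTA tubes. No label says which turtle gave which plasma, and no repeat library of a T0 plasma was used, so that differences between animals and differences between preparations cannot be told apart. The other 16 libraries, drawn after surgery, were not analysed here, and no time points were compared.

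Reads had been counted on the mature miRNA entries of related saurians, because the turtle itself had none to map to. The 528 entries of the painted turtle (prefix cpi) were taken out of 1994 entries, each once. The painted turtle is the nearest relative among the species of the table, and its entries describe 268 hairpins in 154 families, a family being all entries that share a number, such as mir-99a and mir-99b. Relatives with another number count apart, so mir-100, whose guide strand resembles that of mir-99, is a family of its own. A share is the percentage of the counts on all cpi entries of a library, and libraries go by their labels, t31 to t52.

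A miRNA is cut from a hairpin RNA, whose 2 arms (5p and 3p) can both yield a short strand. Usually one of them, the guide, is loaded into an Argonaute protein and directs it to messenger RNAs, while the other is degraded. In plasma, from which blood cells are spun out, miRNAs persist inside vesicles, in protein complexes and in lipoproteins. They come from blood cells, vessel walls and solid organs, and some are known in other vertebrates to be made mainly in 1 tissue, such as mir-122 in liver, mir-1 in muscle and mir-451 in red cells. In turtles the red cells keep their nucleus.

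Depth differed between the libraries, with 41203 to 312589 counts on cpi entries (median 128366) and 1190072 in all. They fell into 4 libraries with 197920 counts or more (t31, t37, t43 and t46) and 4 with 58811 or fewer (t34, t40, t49 and t52). No 2 of the 8 libraries held the same counts, and the rank correlation of a pair (Spearman, over entries that are not independent of each other) lay between 0.719 and 0.871 with a median of 0.784 over 28 pairs. The libraries t40 and t49 were the least like the others, with a mean correlation of 0.75 and 0.76. Both are shallow, and every shallow library had a lower mean correlation than every deeper one. The shallow libraries had 0.7504 to 0.7925 and the deeper ones 0.7934 to 0.8264. Entries without a count are tied in rank, and whether t40 and t49 differ beyond depth was not tested. At these depths counting error was small for the abundant families. The widest 95% Wilson interval of any family in any library was 0.407 percentage points to either side (mir-122 in t40). Intervals and detection limits cover counting error only, since reads copied by PCR are not independent molecules.

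The table names the arms in a way that has to be known before the entries are read. Among 111 cpi hairpins with at least 100 counts whose guide arm is well known in other vertebrates, 105 carry no mark of miRBase, the public miRNA register, and 95 of these (90.5%) had most counts under the name of the arm that is not the guide elsewhere. Of the hairpins whose guide is the 5p strand, 56 of 60 had most counts under 3p, and of those whose guide is the 3p strand, 39 of 45 had most under 5p. The 4 let-7 hairpins with the mark on both arms (let-7i, let-7e, let-7g and let-7d) had most counts under the textbook name. For let-7d this was a narrow majority, 54.7% over the summed counts, and it held in 3 of the 8 libraries. Entries of the other saurians gave the same picture in unmarked hairpins, 80 of 90 for the anole (prefix aca), 79 of 91 for the alligator (ami) and 70 of 81 for the cobra (oha). These are no independent support, since the same read can be counted under several species. For mir-425, cpi entries had 177210 counts, and those of aca, ami and oha 177223, 177302 and 177181. Whether the names or the strands differ was not tested, as no mature sequences were at hand. Arms are therefore given below as the table names them, and an entry such as mir-99a-3p may hold the strand known elsewhere as mir-99a-5p.

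**Figure D1:**
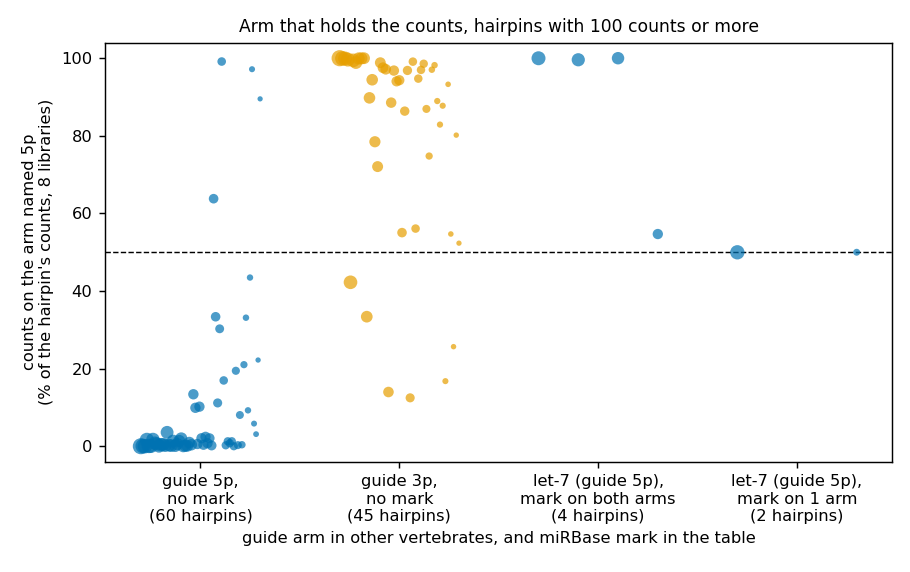
Share of a hairpin's counts on the arm named 5p (%, vertical axis) for 111 cpi hairpins with 100 counts or more, summed over the 8 libraries, grouped by the guide arm known in other vertebrates and by the miRBase mark. Each point is a hairpin, points run from the most to the least counted in a group and grow with the log of its counts; 56 of the 60 unmarked hairpins with a 5p guide lie below 50% and 39 of the 45 with a 3p guide lie above it.

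A few families made up most of the plasma repertoire. The families mir-99, mir-425 and mir-148 together held 47.2% of the counts on average, the first 5 held 62.5%, the first 10 held 79.0% and the first 15 held 87.7%. At the other end, 66 of the 154 families had a mean share under 0.01%, and 16 reached 1%. Within single libraries 3 to 5 entries sufficed for 50% of the counts and 30 to 42 for 90%.

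The family mir-99, which in vertebrates is encoded in clusters with let-7 and mir-125 hairpins, had the highest mean share, 16.3% ± 4.49 (SD, n = 8). It took 8.14% in t37, the lowest library, a median of 17.4%, and 21.2% in t34, the highest. The entry mir-99a-3p alone averaged 13.4% ± 3.89 and mir-99b-3p 2.80% ± 0.825 (SD, n = 8). The low value of t37 lay mainly in mir-99a-3p (6.06%). The entry mir-99b-3p was lowest in t40 (1.67%) and next lowest in t37 (2.05%). Shares of 1 library sum to a fixed total, and mir-122 took 23.1% of t40, which lowers other entries there. These entries were not recounted with mir-122 left out of the total. The family mir-125, the vertebrate counterpart of the worm miRNA lin-4, was lowest in t37 with 0.917%, against a median of 1.90% and a highest value of 2.59% (t52).

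The family mir-425 averaged 16.0% ± 3.88 (SD, n = 8), with 10.9% in t40, a median of 15.3% and 21.2% in t49. In mammals its hairpin lies next to that of mir-191 in an intron of 1 gene. The family mir-191 itself was less abundant, at 2.35% ± 1.37, and had its lowest share in t40 (0.891%), a median of 2.03% and its highest share in t37 (4.90%). The 2 neighbours did not have their highest share in the same library. The family mir-148, abundant in mammalian liver and milk and known there to target a DNA methyltransferase, averaged 14.98% ± 3.72 (SD, n = 8). It ranged from 8.86% in t34 over a median of 16.2% to 19.8% in t37, and nearly all of it was the entry mir-148a-5p (14.9%).

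The let-7 family, which is conserved throughout animals and restrains growth and developmental timing genes, averaged 9.62% ± 0.837 (SD, n = 8) over 26 entries. It had the narrowest relative spread of the leading families, from 8.62% (t31) over 9.69% to 11.1% (t34). Its single entries varied more than their sum. The entry let-7b-5p had 0.515% in t37 and 2.78% in t40, while let-7i-5p had 2.89% in t37 and 1.29% in t40, so that the members stood in opposite order in these libraries. The entries let-7c-1-3p and let-7e-5p averaged 1.07% ± 0.630 and 0.875% ± 0.335. Some let-7 hairpins had equal or nearly equal counts under both arm names. For let-7b, 15951 counts stood on the marked 5p entry and 15962 on the unmarked 3p entry, which differ in 3 libraries, and let-7a-4 (101 and 101) had equal counts on both. Whether the same reads stand behind both names was not tested. Over all saurian prefixes, 10 of 21 let-7 hairpins with the mark on 1 arm had identical counts on both arms in every library. Among other cpi hairpins with at least 100 counts, 0 of 143 did. The 21 were taken with any count, and at 100 counts or more 6 of them remained, whose arms differed by at most 0.069%. Leaving out the unmarked member of such pairs lowered the mean let-7 share to 8.27%.

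**Figure D2:**
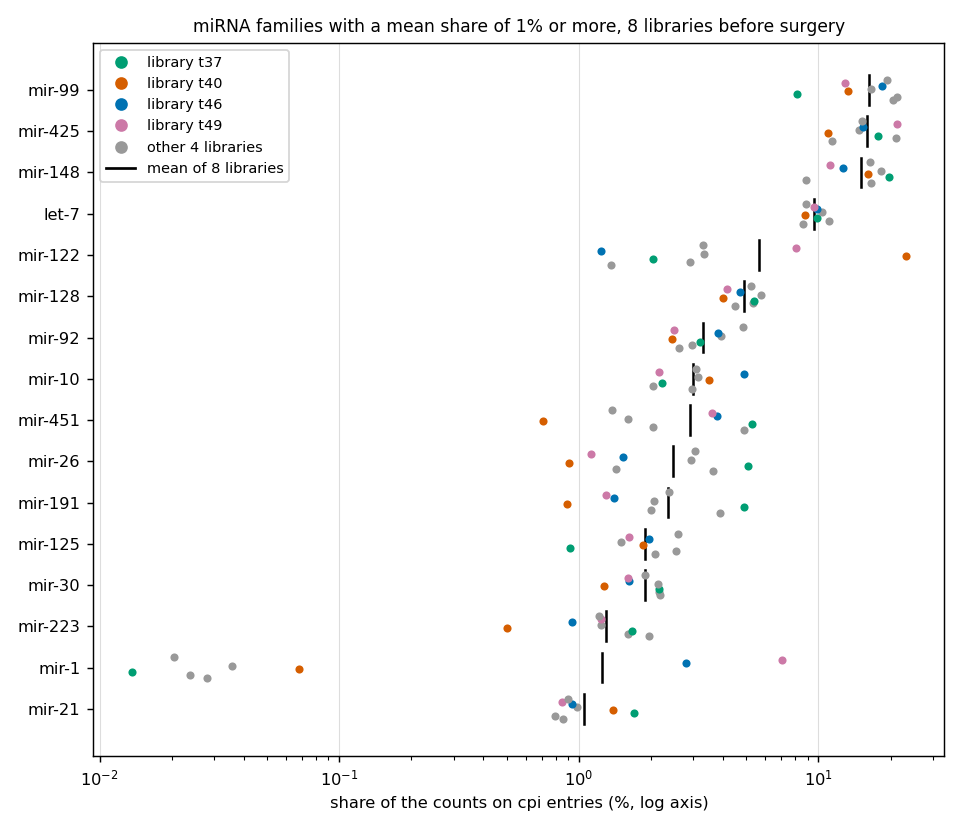
Share of the counts on cpi entries (%, log axis) in each of the 8 libraries for the 16 families with a mean share of 1% or more. Points are libraries, with t37, t40, t46 and t49 coloured, and the black line is the mean; most families lie within a few-fold between libraries, while mir-122 reaches 23.1% in t40 and mir-1 reaches 7.03% in t49 and 2.81% in t46 against at most 0.068% elsewhere.

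The remaining families of 1% or more were widely expressed ones or tissue-typical ones. The family mir-128, known as enriched in mammalian brain, averaged 4.88% ± 0.637 (SD, n = 8) and stayed between 3.99% (t40) and 5.75% (t43). The family mir-92, whose mammalian hairpins belong to the growth-promoting cluster of mir-17 and its copy, averaged 3.29% ± 0.843, and mir-10, which lies in Hox gene clusters, 2.997% ± 0.937. The family mir-10 was highest in t46 (4.91%) with a median of 3.02%, and its main entry mir-10a-3p averaged 2.39%. The family mir-26, which in mammals restrains cell cycle and chromatin regulators, averaged 2.46% ± 1.46 and spread from 0.913% (t40) over 2.24% to 5.08% (t37). The family mir-30, abundant in many mammalian epithelia, averaged 1.88% ± 0.345 and mir-21, a widely expressed miRNA induced in inflammation, 1.05% ± 0.322.

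A few libraries stood at an end of the range in many of these families. Of the 16 families of 1% or more, 5 (mir-148, mir-451, mir-26, mir-191 and mir-21) were highest in t37, and 8 were lowest in t40. Shares of 1 library sum to a fixed total, and t40 was the library in which mir-122 took 23.1%. With mir-122 left out of the total, a choice made after its values were seen, 4 of the 16 families were still lowest in t40, namely mir-451, mir-26, mir-191 and mir-223. Of the 5 families highest in t37, 3 were still so, while mir-148 and mir-21 were then highest in t40. Without mir-122 in the total, mir-451 for instance had 0.919% in t40, against 1.43% in t52, the next lowest, and 5.41% in t37.

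Tissue-typical miRNAs were then read from 14 lists with 44 families, taken from what is known in other vertebrates. Of these, 40 families had a cpi entry and 29 had a count in every library. Plasma is separated from blood cells, and whether some remained was not tested. The lists therefore describe possible sources of RNA and check no cell type. In such a share, more cells releasing RNA and more RNA released per cell cannot be told apart.

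Liver miRNAs had the highest mean of the lists, with 6.945% ± 6.999 (SD, n = 8), a median of 4.21% and a range of 2.94% (t46) to 23.7% (t40). Most of it was mir-122, the miRNA that makes up the bulk of miRNAs in vertebrate hepatocytes, where it acts on lipid metabolism. Its share was 1.23% in t46, the lowest, a median of 3.10%, 8.04% in t49 and 23.1% in t40, where it was the most abundant of all entries. The Wilson intervals of these last libraries were 7.80% to 8.28% and 22.7% to 23.5%. The family mean of 5.67% ± 7.38 dropped to 3.17% without t40, and the list mean to 4.55%. The first place of the liver list rested on t40, since the nervous system list had the higher median (5.13%) and the higher share in 6 of the 8 libraries, all but t40 and t49. The families mir-192 and mir-194, which in mammals share clusters and are made in liver, gut and kidney, averaged 0.580% ± 0.318 and 0.696% ± 0.320. They did not follow mir-122. In t40, where mir-122 was highest, mir-192 had its lowest share (0.182%) and mir-194 its second lowest (0.379%), and both were highest in t31, with 1.16% and 1.30%.

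Skeletal muscle miRNAs were highest in a pair of libraries, t49 and t46. The list averaged 1.82% ± 2.99 (SD, n = 8), with a median of 0.582%, a lowest share of 0.051% (t52) and a highest of 8.72% (t49). The family mir-1, made in heart and skeletal muscle, had 7.03% in t49 and 2.81% in t46, and between 0.014% (t37) and 0.068% (t40) in the other 6 libraries. Its Wilson intervals in t49 (6.81% to 7.26%) and t46 (2.74% to 2.88%) lay above that of t40 (0.047% to 0.098%) without overlap. The mean of 1.25% ± 2.53 dropped to 0.428% without t49. The family mir-133, transcribed together with mir-1 in vertebrates, was high in the same libraries, with 0.795% in t49 and 0.240% in t46 against 0.003% to 0.033% in the others.

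The third muscle family, mir-206, which in mammals is restricted to skeletal muscle and marks slow and regenerating fibres, was spread differently. It averaged 0.419% ± 0.325 (SD, n = 8) and ranged from 0.027% (t52) and 0.041% (t37) to 0.781% (t40) and 0.890% (t49). In t46, where mir-1 was second highest, mir-206 had 0.356%, which was lower than in 4 other libraries. The family mir-499, encoded inside a myosin gene of heart and slow muscle, averaged 0.102% ± 0.098 and was lowest in t49 (0.010%), the library with the most mir-1, and highest in t40 (0.260%). Its relative mir-208, known from the heart muscle myosin genes of mammals, had 13 counts in all, with none in 4 libraries. In t31, the deepest library, a count of 0 allowed a share of mir-208 of up to 0.00096%.

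**Figure D3:**
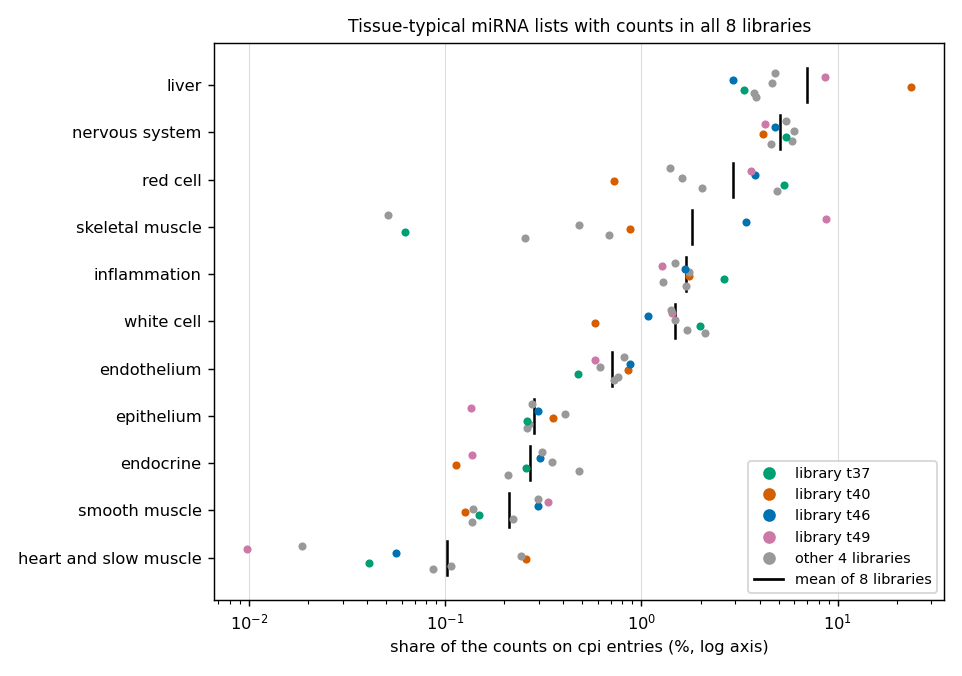
Summed share of the counts on cpi entries (%, log axis) for the 11 tissue-typical lists with counts in all 8 libraries, with the black line at the mean. The liver list lies between 2.94% and 8.65% in 7 libraries and at 23.7% in t40, and the skeletal muscle list is highest in t49 (8.72%) and t46 (3.40%).

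Red cell miRNAs averaged 2.92% ± 1.72 (SD, n = 8), and 1 family carried them. The family mir-451, which in fish and mouse is matured by Argonaute itself without Dicer and accompanies red cell formation, averaged 2.91% ± 1.71, from 0.706% (t40) over 2.81% to 5.30% (t37). Its cluster partner mir-144 stayed at 0.015% ± 0.007, with 180 counts against 42064 for mir-451 over the libraries. Among white cell miRNAs, mir-223, made by granulocytes and monocytes in mammals, averaged 1.29% ± 0.455, with a median of 1.23% and a highest share of 1.96% (t31), and was lowest in t40 at 206 counts of 41203. The family mir-142, made in all blood cell lineages of mammals, averaged 0.181% ± 0.082 and was lowest in t40 (0.078%) as well. Both families differed between prefixes. For mir-223, cpi entries had 17020 counts, and those of alligator, cobra and anole 17014, 8912 and 137. For mir-142, cpi entries had 2382 counts, and those of alligator, cobra and anole 1226, 1096 and 1086. The reason was not tested. Lymphocyte miRNA mir-150 had no cpi entry, but its entries for anole, alligator and cobra held 2.30%, 2.47% and 2.39% of the counts of their prefixes on average. It was the only one of 103 families counted at T0 without a cpi entry that reached 0.1% of a prefix.

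The vessel and epithelial lists had lower means than the red and white cell lists. The endothelial list averaged 0.711% ± 0.143 (SD, n = 8), most of it mir-126, which is encoded in an endothelial gene and supports vessel integrity in fish and mouse (0.507% ± 0.132, from 0.256% in t37 to 0.684% in t52). The families mir-221 and mir-222 added 0.052% and 0.152%. Smooth muscle miRNAs mir-143 and mir-145, made from 1 transcript in mammals, averaged 0.143% ± 0.074 and 0.070% ± 0.032. The epithelial list reached 0.283% ± 0.079, with mir-200, a guardian of the epithelial state in mammals, at 0.169% and mir-205 at 0.098%, while mir-203, the keratinocyte miRNA of mouse skin, had 0.011% and mir-429 0.005%. The family mir-141 had no cpi entry.

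Of the 8 families on the nervous system list, mir-128 held 4.88% of the 5.07% counted. On cpi entries the neuron-defining mir-124 had 19 counts in all and none in 3 libraries, and mir-138 and mir-218 were also missing from some libraries. Other prefixes differed in this. The anole and alligator entries of mir-124 had 136 and 573 counts, in all 8 libraries, and the cobra entries 21 counts in 5. For mir-138 the anole and cobra entries had 178 and 202 counts, in all 8 libraries, and the alligator entries 72 counts in 6. The family mir-218 was counted in 7 libraries under each prefix. The family mir-9, made by neural progenitors and neurons, averaged 0.095% ± 0.126 (SD, n = 8). It had 0.400% in t34 and between 0.023% (t31) and 0.082% (t52) elsewhere. The oligodendrocyte miRNA mir-219 averaged 0.052% ± 0.027, and mir-129 and mir-137 averaged 0.010% and 0.011%.

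Hormone-gland miRNAs averaged 0.271% ± 0.119 (SD, n = 8). The family mir-375, which shapes insulin cells of the pancreas in mouse, ranged from 0.036% (t40) to 0.363% (t34) with a mean of 0.159%, and mir-7, also of endocrine cells, averaged 0.112% ± 0.038. Other organ lists were near the detection limit. The pancreatic enzyme-cell miRNAs mir-216 and mir-217 had 16 and 13 counts over all libraries, and the gonad miRNA mir-202, the only one of the ovary and egg list with a cpi entry, had 15 counts, although all donors were mature females. The sensory families mir-96, mir-182 and mir-183 had 10, 28 and 82 counts.

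Inflammation-related miRNAs were measurable at rest, with 1.69% ± 0.433 (SD, n = 8). The family mir-21 led the list, followed by mir-146, a brake on innate immune signalling in mammals, at 0.572% ± 0.168. The family mir-155, induced in activated immune cells, had 0.066% ± 0.058. Library t37 was highest in each of these, with 1.70% for mir-21, 0.753% for mir-146 and 0.192% for mir-155, against medians of 0.920% for mir-21 and 0.604% for mir-146.

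The choice of arm was sharp in most hairpins. Of 154 hairpins with at least 100 counts on their 2 arms, 100 had at least 90% of them on 1 arm and 50 had at least 99%, and the median was 96.9%. In 112 of the 154 hairpins the arm with most counts was the same in every library that counted the hairpin. The most abundant hairpins belonged to the class of at least 99%. The hairpin mir-148a had 192029 counts under 5p and 1 under 3p, mir-425 had 177191 under 3p and 19 under 5p, and mir-99a had 162535 under 3p and 14 under 5p. Under 60% on the leading arm were 16 hairpins. The most counted of them, beside let-7b, was mir-223, with 9828 counts under 3p and 7192 under 5p. Also in this class were mir-1388 (2166 under 3p and 1887 under 5p) and let-7d (599 under 3p and 723 under 5p). Among the 10 unmarked hairpins that kept the textbook name, mir-223, mir-24-2 (2338 under 3p and 1172 under 5p) and mir-210 (1360 and 221) were the most counted. The hairpin mir-219-1 had 463 of its counts under 5p and 4 under 3p.

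Copies of a hairpin with the same name often had nearly equal counts. The 3p entries of mir-26-1, mir-26-2 and mir-26-3 had 11845, 11973 and 11992 counts over the libraries, those of mir-125b-1 and mir-125b-2 had 5151 and 5114, and the 5p entries of mir-1a-1 and mir-1a-2 had 4861 and 4920. In other pairs 1 copy led, as in mir-128-1-5p and mir-128-2-5p (36722 and 22746) and in mir-92a-1-5p and mir-92a-2-5p (22663 and 16509). How reads that match several copies were assigned is not given in the sources used here, so values of single copies are uncertain. The shares of families with several copies are uncertain too, since a read counted under each copy would enter the sum more than once. For mir-128, the 5p entries of both copies summed to 59468 counts. The cobra mir-128 family, led by an entry without a copy number, had 59342. Whether reads were counted under each copy was not tested.

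Detection followed depth. Of the 528 entries, 261 to 414 had a count in a library, with a median of 348.5. The number detected rose with the log10 of the total (Pearson's r = 0.99, two-sided exact permutation p = 0.000273, or 0.00109 after Benjamini-Hochberg adjustment over 4 relations, and Spearman's rho = 0.98, p = 0.000397, or 0.00159 after adjustment, n = 8), and r was 0.99 without t31 and t40, the libraries farthest from the median. At the total of the shallowest library, 261 to 318 entries were expected. The 8 totals lie in 2 separate ranges, and within a range there are only 4 libraries, too few for a value. The red cell, liver and skeletal muscle lists gave no such relation with the total in an exact permutation test (r = 0.59, -0.55 and -0.28, with p = 0.119, 0.0546 and 0.617, or 0.159, 0.109 and 0.617 after adjustment, and rho = 0.55, -0.48 and -0.33, with p = 0.171, 0.243 and 0.428, n = 8). Without t31 and t40, r was 0.33, -0.51 and -0.31 for these lists. Leaving out 1 library at a time moved r of the red cell list between 0.47 and 0.83, and the highest r (without t43) had a p of 0.0845 after adjustment in the exact permutation test. The liver relation passed 0.05 when t34 was left out, where r was -0.70 (exact permutation, 0.0155 after adjustment), against 0.0702 to 0.355 after adjustment without each of the others, and r of the muscle list turned to 0.15 without t49.

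A common core carried nearly all the counts. In all 8 libraries, 171 of 528 entries (32.4%) were detected, and they held 98.96% of the counts on average. In a single library 54 entries were counted, and 18 in none. By family, 87 of 154 had a count in every library. Among the 20 families with numbers of 5000 and above, which have no well-studied counterpart in mammals, all were counted but only 5 in every library, and together they held 0.284% ± 0.094 (SD, n = 8). Their most abundant entries were mir-9579-3p, mir-9578-5p and mir-9587-3p, in families with 0.095%, 0.061% and 0.044%. The next families were mir-9581 and mir-9583, at 0.020% and 0.017%.

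**Figure D4:**
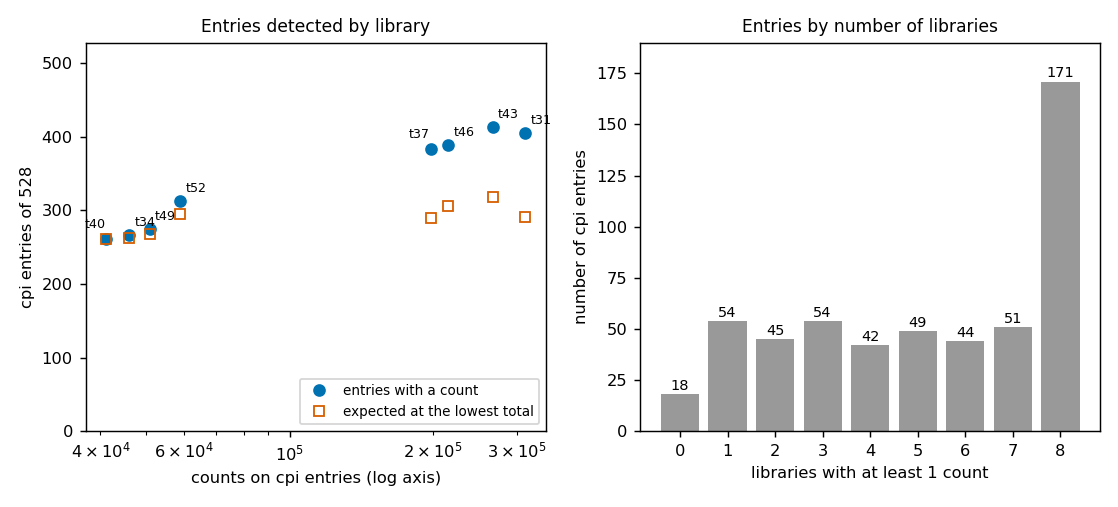
Left, number of cpi entries with a count in each library (filled points) and the number expected at the lowest total (open squares) against the total cpi count (log axis). Right, number of entries by the number of libraries in which they were counted; 171 entries were counted in all 8 libraries and 18 in none.

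The study listed 14 miRNAs as changed after surgery in its sequencing, and its RT-qPCR tests of part of them found mir-203-5p and mir-499-3p modulated. The listed miRNAs were minor members of the resting repertoire. A cpi entry existed for 11 of these 14, and together they held 0.349% of the counts. The highest was mir-143-5p, which ranked 58 by mean share with 0.139% ± 0.072 (SD, n = 8), then mir-499-3p with 0.101% ± 0.097 and mir-145-3p with 0.050% ± 0.024. Entries mir-92b-5p and mir-187-5p were also counted in every library, at 0.017% and 0.010%. Those at the limit of detection of the sequencing included mir-203-5p with 64 counts in 7 libraries, mir-196-2-3p with 13 counts in 4 libraries and mir-29a-1-3p with 6 counts in 2 libraries. Entries mir-125b-1-5p, mir-92c-5p and mir-218-2-3p had 71, 89 and 58 counts, each in 7 libraries. The miRNAs mir-5415-5p, mir-5405-3p and mir-138-1-3p had no cpi entry.

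Spread between libraries was read beside the spread that counting alone would give, a floor that separate animals and preparations would normally exceed. Of the 90 entries with at least 10 counts in each library, which held 95.7% of the counts, all had a coefficient of variation (CV) of their CPM, counts scaled to a common total of cpi counts, above that of counting alone. The median CV was 37.9% against 7.51% for counting, and the highest library exceeded the lowest 3.55-fold in the median entry. The common biological coefficient of variation, the spread left after counting noise in the edgeR model, was 0.471 (jackknife SE 0.132) over 118 entries. Single entries ranged from 0.314 to 0.872. The filter on low counts was rerun for each library left out and kept 86 to 140 entries. The SE therefore also holds the change of entries.

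The steadiest entries were mir-128-1-5p (CV 12.1%), mir-128-2-5p (15.3%), mir-30d-3p (15.5%), mir-425-3p (24.3%) and mir-92a-2-5p (24.3%). For mir-128-1-5p the lowest library had 25338 CPM (t40) and the highest 35062 CPM (t43), a 1.38-fold range. The least steady were mir-122-3p (CV 130%, an 18.7-fold range), mir-206-5p (77.5%, 32.7-fold), mir-9587-3p (65.8%, 5.87-fold), mir-375-5p (64.9%, 9.98-fold) and mir-26-1-3p (62.1%, 6.47-fold). Entries of mir-1 varied more still, with a CV of 204% for mir-1a-2-5p, but had fewer than 10 counts in some libraries and are not among the 90. The entry mir-499-3p is missing from the 90 for the same reason, with 5 counts in t49 and 9 in t52. Its CV was 95.9%, above that of mir-206-5p. By library, t40 was lowest in 35 of the 90 entries, t37 was highest in 20 and lowest in 21, and t46 was highest in 20. CPM rest on a fixed total, and mir-122 took 23.1% of t40, which lowers all other entries there. The entries were not recounted with mir-122 left out of the total. For the family mir-128, t49 and not t40 was lowest once mir-122 was left out.

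**Figure D5:**
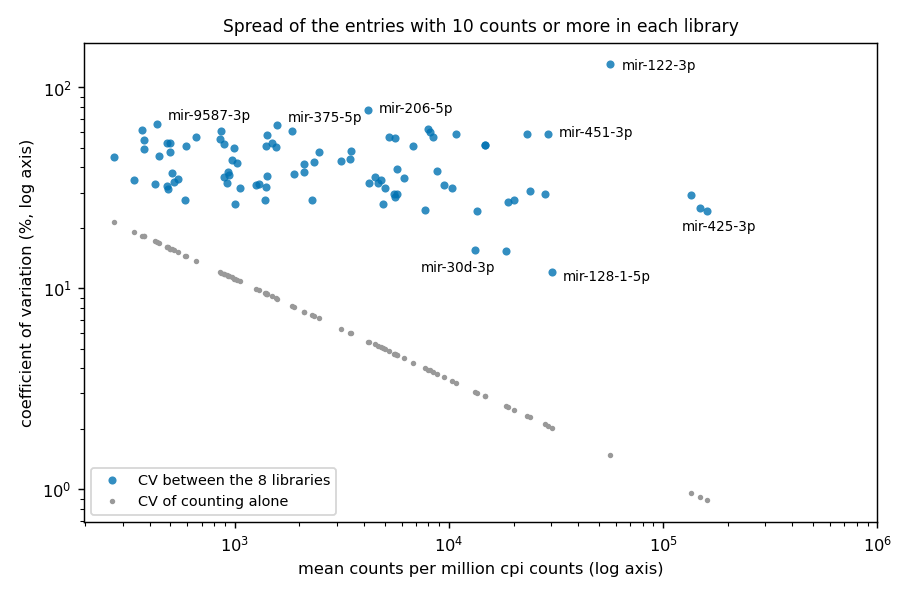
Coefficient of variation between the 8 libraries (%, log axis) against mean CPM (log axis) for the 90 entries with 10 counts or more in each library (blue), with the CV that counting alone would give (grey). All 90 lie above their counting value; mir-128-1-5p is lowest at 12.1% and mir-122-3p highest at 130%.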

How the data were processed

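The authors sequenced small RNA of turtle plasma, trimmed adapters with Cutadapt and aligned the reads with BWA to saurian hairpins of miRBase. The deposited values are raw whole-number counts of reads on mature miRNA entries. The table lists all 1994 entries a second time with equal counts (3988 rows), and 1 listing was kept. The same read can be counted under several species. Columns without a sample numbered 0. The labels name another extraction kit than the one the study selected, and which kit was used was not settled. Samples were grouped by their labels, and replicates are 1 library per turtle.

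Shares were computed per library over cpi entries and averaged over the 8 libraries with equal weight (Python 3.11.15, numpy 2.4.6, scipy 1.17.1, pandas 2.3.3, matplotlib 3.10.9). Wilson intervals are at 95%, and the limit that a count of 0 allows is 3 counts of the total. Depth relations used exact permutation tests over the 40320 pairings, two-sided, with Benjamini-Hochberg adjustment. Spread was estimated with edgeR 4.0.16 in R 4.3.3 (TMM, filterByExpr, intercept only), tested on simulated data. DESeq2 1.42.0 gave alternative size factors. Depth, 41203 to 312589 cpi counts per library, limits rare entries.

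The members and lists were chosen with earlier results of these data known. Named were the 20 entries and 15 families with the highest mean share and the families of 14 tissue lists. The 5 most and 5 least variable entries with at least 10 counts in each library were added. So were up to 5 families numbered 5000 and above and the miRNAs the study listed as changed after surgery. Up to 6 hairpins per arm class with at least 100 counts were also named. Alternatives were other prefixes, denominators, scalings, count minimums and leaving out each library.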

Additional observations from a re-analysis of the deposited data

Results flagged for a closer look

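Among 69 groups of 8 values (families, lists and named entries), 11 had a library whose gap to its nearest neighbour, as a fraction of the whole range, passed Dixon's 95% limit for 8 samples. All 11 were flagged at their highest library. Chance flags about 1 in 20 groups if values are normally distributed, which was not checked for these shares, and lists share counts with their families. The causes were not tested.

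Library t40 stood apart in mir-122 (gap fraction 0.689 for the family and 0.690 for the entry mir-122-3p) and with it in the liver list (0.725). Library t49 stood apart in mir-1 (0.602), mir-133 (0.702) and the skeletal muscle list (0.613), with t46 next to it each time. Library t37 stood apart in mir-155 (0.594) and the inflammation list (0.647).

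Library t34 had the widest relative gap, in mir-9 (0.845), and also stood apart in let-7c-1-3p (0.599), with 2.49% against 0.447% to 1.27% in the others. Library t46 stood apart in mir-10a-3p (0.545), with 3.87% against a median of 2.48%.

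The table also holds 8 entries with the rhesus monkey prefix (mml), all let-7, which no result above uses. They held 1.53% of the counts on average over all entries once, led by let-7i-5p with 22971 counts, against 22973 for the cpi entry of that name.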

How the results depend on the processing

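Of the recomputed values, 137 of those that answer a question above and 459 others stayed within the spread between libraries (a count within 1.5 times), while 18 and 14 did not. A mean share recomputed without 1 library cannot leave this spread, whatever the data, and neither can a median share. Such values are among those that stayed, so the tally is no test of these settings. The let-7 mean share (9.62%) was 7.85% with 4 saurian prefixes summed, 11.5% without mir-99 in the total, 8.27% without the unmarked arm of let-7 hairpins with 1 mark, and 7.22%, 8.53% and 5.99% in the aca, ami and oha prefixes. Of the hairpins of the guide list, 86.5% had most counts under the other name, 81.6% at a minimum of 10 counts, 88.9% at 1000, and 84.2%, 81.4% and 79.5% in aca, ami and oha. The median share of the leading arm (96.9%) was 90.6% and 98.9% at these minimums. The median number of entries detected was 172.5 at 10 counts or more, and 617 names over all prefixes. The common coefficient of variation was 0.785 with no filter on low counts, and 0.411 to 0.562 leaving out 1 library. In the latter the filter was rerun and kept 86 to 140 entries, so library and entries changed together. The white cell list (1.47%) was 2.73% over 4 prefixes, which hold mir-150. The red cell list was 0.019% in ami, where mir-144 alone made up this value, since mir-451 had no ami entry. Leaving out 1 library, r with depth ran from -0.70 (without t34, adjusted permutation p = 0.0155) to -0.52 for the liver list and from -0.38 to 0.15 (without t49) for the muscle list. Leaving out t40, t46 and t49 together, chosen after the data were seen as were single prefixes and the let-7 and mir-122 settings, gave 4.05% for the liver and 0.306% for the muscle list. The causes were not tested. No paired analysis was possible because 1 group is described and the labels carry no turtle number. Entries with few counts in the 4 shallow libraries are limited by depth.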

Other observations

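The anole entries of the mir-129 family held 2.61% of the counts of their prefix on average, and the cpi entries of this family 0.010% of theirs. The leading anole entry was mir-129b-5p, whose share ran from 0.175% in t40 and 0.297% in t37 to 8.03% in t34, the library that also stood apart in mir-9 and let-7c-1-3p. It was noticed after the values were seen.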
